A study of Mus musculus with 8 samples.

Results

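Paneth cells fill their secretory granules with many alpha-defensins, and with a smaller group of other products. The expression of 10 granule and marker genes of these cells, none of them a defensin, was measured in sorted mouse Paneth cells. These were Lyz1, Ang4, Itln1, Mptx1, Mptx2, Mmp7, Spink4, Clps, Habp2 and Nupr1. They were found in the table of counts by their Ensembl gene IDs, which the GENCODE annotation pairs with symbols. All 10 were present among the 55414 gene IDs of the table, each under a single ID. No measured value was used to choose them, although earlier results of these data were known.

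The series held 8 RNA-seq libraries of Paneth cells sorted from the small intestine, 4 in each group. The TG group came from transgenic mice with the genotype label DT TG, whose Paneth cells express diphtheria toxin, a bacterial enzyme that stops protein synthesis. The WT group came from wild type mice without the toxin. The title of the series speaks of depletion of mature Paneth cells. The study works with C57BL/6J mice and describes its libraries as coming from individual mice. Its sorting scheme collected cells with the surface proteins CD24 and c-Kit and a granular scatter, and left out cells with CD31, CD45 or TER119. The TG cells were therefore the Paneth cells that were still present and passed this gate. The promoter of the toxin, how it was switched on, the number of transgenic lines and the ages of the mice were not given in the sources used here. Males and females are both said to be in the datasets of the study, and the labels give no sex for a library. Nothing in the labels says that each library is 1 mouse, so the p-values measure the spread between these libraries.

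Paneth cells sit at the base of the crypts of the small intestine, next to the stem cells. They release granules into the crypt lumen, which keeps bacteria away from the epithelium, and they supply signals to the stem cells. Lysozyme cleaves the cell wall of bacteria and is the classical marker of this cell type. Angiogenin 4 is an antimicrobial ribonuclease. Intelectin 1 is a lectin that binds sugars found on microbes, and the mucosal pentraxins Mptx1 and Mptx2 belong to the family of C-reactive protein. Matrilysin, the product of Mmp7, is the protease that cuts mouse pro-alpha-defensins into their active form.

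Of the 10 genes, 3 were lower in TG, namely Mptx2, Mmp7 and Ang4. Mptx2 had the largest change of these, at 2.54-fold lower, and Mmp7 and Ang4 were 1.51-fold and 1.49-fold lower. The abundant Lyz1 and Itln1 did not pass the test, and neither did Mptx1, Spink4, Clps, Habp2 and Nupr1. No gene of the 10 was called higher. Over all 11929 genes that passed the filter on low counts, 9.65% were called lower in TG and 8.26% were called higher. All 10 genes passed that filter.

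These numbers come from edgeR's quasi-likelihood test with Benjamini-Hochberg adjustment over all tested genes, with an adjusted p below 0.05 taken as a call. Levels in a library are given as CPM, the counts of a gene for each 1000000 counts of the library, after TMM scaling, which sets libraries to a common level by the genes that change least. A fold change is TG over WT on the log2 scale with its standard error (SE), so that a negative value means lower in TG. In bulk RNA of sorted cells, fewer cells with a transcript and less of it per cell cannot be told apart.

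Total counts were 13107397 to 16218434 in TG and 13601510 to 15018711 in WT. The 10 genes took 24.9% to 28.7% of all counts in the TG libraries and 23.9% to 26.4% in the WT libraries, and the 28 alpha-defensin genes took 26.2% to 33.9% over both. Transcripts typical of Paneth cells were thus abundant in every library, but these shares do not measure the purity of the sort. Replicates 1 and 2 of both groups had no counts for 4 Y-linked genes, whereas replicates 3 and 4 had 897 to 1564, and this split is balanced over the groups. WT replicate 3 had the lowest TMM-scaled level of the 4 WT libraries for all 10 genes. With total counts as the scale this held for 8 of them.

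**Figure D1:**
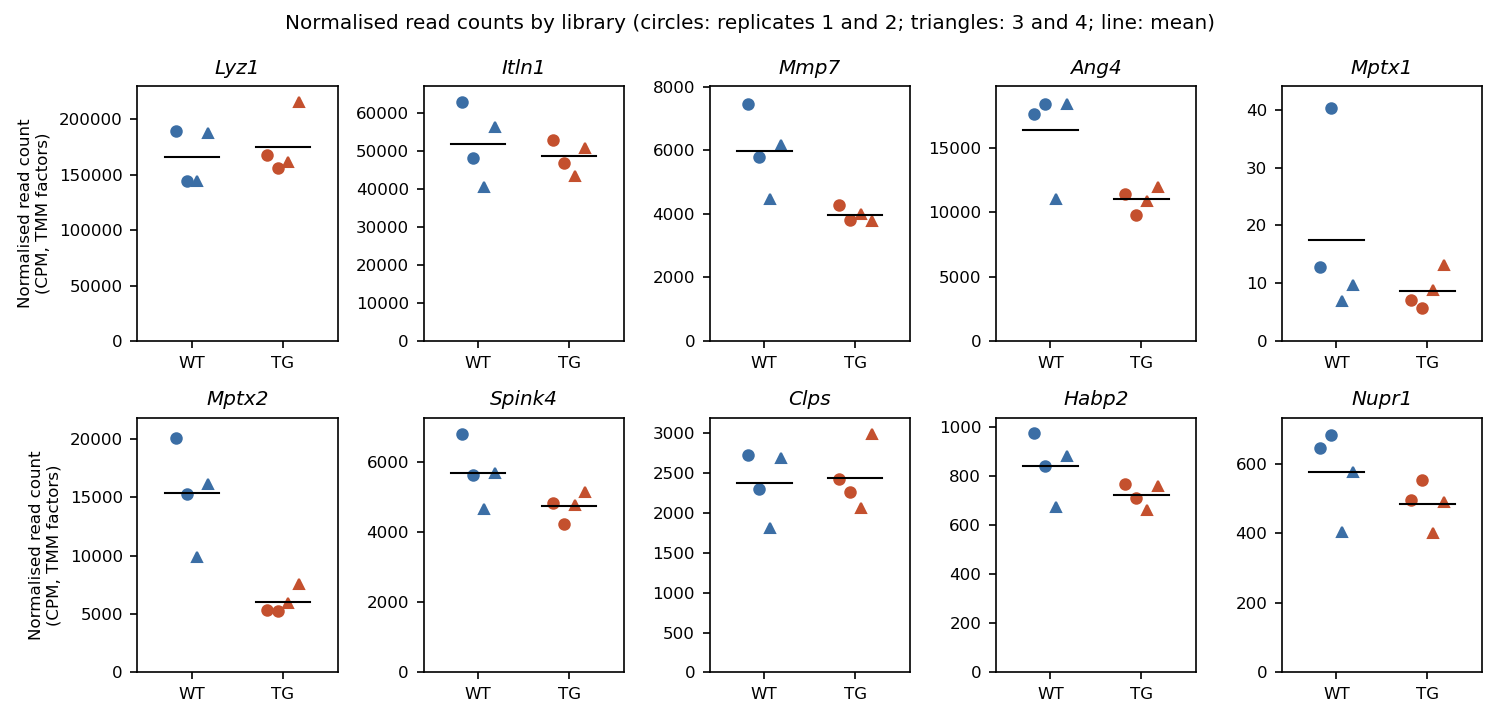
Normalised read counts (CPM with TMM factors, y axis from 0, a separate scale for each gene) of the 10 genes in the 4 WT libraries (blue) and the 4 TG libraries (red). Circles are replicates 1 and 2, triangles are replicates 3 and 4, and lines are group means. All TG libraries lie below all WT libraries for Mptx2 and Mmp7, and for Ang4 WT replicate 3, at 11077 CPM, lies among the TG libraries.

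The mucosal pentraxins were examined first, since they hold the largest change. Mptx2 and Mptx1 lie on chromosome 1 (GRCm39, Mptx2 at 173101949 to 173105344 on the minus strand, Mptx1 at 174158084 to 174160439 on the plus strand), and each has 1 annotated transcript. Their coding sequences of 660 bases are 92.0% identical, with an identical run of up to 109 bases. It therefore matters whether reads of the pair could be told apart. A stretch of 60 coding bases, from position 530 to 589, shows where they differ most clearly, with the 11 differing bases in capitals:
Mptx2: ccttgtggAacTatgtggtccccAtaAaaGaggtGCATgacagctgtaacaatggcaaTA
Mptx1: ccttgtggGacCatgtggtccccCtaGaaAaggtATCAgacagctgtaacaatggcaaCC
Of all stretches of 60 bases in the Mptx2 transcript, 85.9% occurred in no transcript of another gene, and all of the shared ones were shared with Mptx1. The treatment of reads with several alignments was not given in the sources used here.

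Mptx2 was at 5358, 5252, 5941 and 7579 CPM in TG replicates 1 to 4. In WT replicates 1 to 4 it was at 20049, 15252, 9892 and 16167 CPM. The groups did not overlap, and the lowest WT library was WT replicate 3. The means were 6032 ± 1075 CPM in TG and 15340 ± 4185 CPM in WT (SD, n = 4 each). The log2 fold change was -1.35 ± 0.20 (SE, edgeR adjusted p = 0.00116). Without WT replicate 3 it was -1.51, with an adjusted p of 0.000437. The log2 fold changes with any library left out lay between -1.51 and -1.19, and Mptx2 was called in all 8 of these fits.

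Mptx1 was scarce in the same cells. It was at 7.13, 5.63, 8.75 and 13.2 CPM in TG and at 12.9, 40.3, 6.89 and 9.67 CPM in WT. A single library, WT replicate 2, stood above the rest, and the groups overlapped. The log2 fold change was -1.02 ± 0.64 (SE, edgeR adjusted p = 0.321), and without WT replicate 2 it was -0.18. For each 1000 Mptx2 counts there were 1.07 to 1.74 Mptx1 counts in TG and 0.598 to 2.64 in WT. Reads of Mptx2 that were counted for Mptx1 would enter these values, and their part in them was not tested.

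The sequence upstream of the genes was looked up for the 3 genes that were lower and for Mptx1, the close relative of Mptx2. The 250 bases before the transcription start are given from RefSeq on GRCm38.p6, in the direction of the gene. Capitals mark 2 short motifs, searched on both strands: TATAA, the core of the TATA box, and CTTTGA or CTTTGT, the core of the sites that TCF factors of the Wnt pathway bind. Wnt signals are known to drive the maturation of Paneth cells.
Mptx2, chr1:173277757-173278006, minus strand: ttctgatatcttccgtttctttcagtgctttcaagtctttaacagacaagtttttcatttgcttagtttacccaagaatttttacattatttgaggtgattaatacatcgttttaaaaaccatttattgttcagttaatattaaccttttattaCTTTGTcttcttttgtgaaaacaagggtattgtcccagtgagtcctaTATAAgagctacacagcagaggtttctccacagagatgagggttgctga
Mptx1, chr1:174330268-174330517, plus strand: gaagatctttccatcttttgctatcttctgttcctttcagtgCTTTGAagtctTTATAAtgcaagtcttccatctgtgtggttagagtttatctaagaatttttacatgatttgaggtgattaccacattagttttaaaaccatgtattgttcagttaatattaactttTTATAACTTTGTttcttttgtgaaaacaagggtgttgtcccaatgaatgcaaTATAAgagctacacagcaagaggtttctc
Mmp7, chr9:7691840-7692089, plus strand, the upstream of 2 annotated starts: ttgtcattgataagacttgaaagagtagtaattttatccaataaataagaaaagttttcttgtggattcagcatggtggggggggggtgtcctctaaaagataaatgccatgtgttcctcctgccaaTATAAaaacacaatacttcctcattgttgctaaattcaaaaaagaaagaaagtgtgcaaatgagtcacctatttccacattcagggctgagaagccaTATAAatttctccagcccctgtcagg
Ang4, chr14:51773591-51773840, minus strand: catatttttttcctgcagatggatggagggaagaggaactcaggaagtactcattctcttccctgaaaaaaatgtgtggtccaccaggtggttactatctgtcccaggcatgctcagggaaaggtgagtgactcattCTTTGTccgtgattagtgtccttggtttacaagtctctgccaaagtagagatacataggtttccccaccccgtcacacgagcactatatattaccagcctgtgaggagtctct
TATAA was found in 22.7% and the TCF core in 27.7% of all 32536 windows of this length. The Mptx2 window held TATAA 49 bases and CTTTGT 96 bases before the start. Mptx1 held 5 matches to TATAA, some of them overlapping on opposite strands, and 2 to the TCF core, and its window was 72.4% identical to that of Mptx2. The printed Mmp7 window held TATAA at 2 places and no TCF core. The window before its other annotated start, chr9:7692091-7692340, held no TATAA and the TCF core at 2 places. Ang4 held the TCF core once, 113 bases before the start, and no TATAA. Genes that were not called held the same motifs. Lyz1 held the TCF core once, 140 bases before the start, and no TATAA. Itln1 held TATAA once, 224 bases before the start, and no TCF core. Nupr1 held TATAA 50 and 49 bases before the start, on opposite strands, and no TCF core. Habp2 held neither motif. Which motif is found thus depends for Mmp7 on the start used, and a match is only a description of the letters.

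Mmp7 (chromosome 9, 7692091 to 7699587, plus strand) encodes the protease that acts on the alpha-defensins. It was at 4284, 3799, 4001 and 3776 CPM in TG and at 7460, 5796, 4454 and 6161 CPM in WT. Every TG library was below every WT library. The means were 3965 ± 235 and 5968 ± 1236 CPM (SD, n = 4 each), and the log2 fold change was -0.59 ± 0.15 (SE, edgeR adjusted p = 0.0179). Mmp7 and Mptx2 were the 2 genes of the 10 with no overlap on this scale. Of all tested genes, 12% lay wholly lower in TG and 10% wholly higher, so such a pattern was common. The call of Mmp7 held in 7 of the 8 fits with a library left out and was lost without TG replicate 2, at a log2 fold change of -0.57 (adjusted p = 0.0588). The antisense gene AV064505 shares 123 exon bases with Mmp7 but had 7 to 17 counts per library.

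Ang4 (chromosome 14, 51990721 to 52011053, minus strand) was the third gene called lower. In TG it was at 11443, 9806, 10906 and 11978 CPM. In WT it was at 17657, 18461, 11077 and 18435 CPM, so that 3 WT libraries lay close together and WT replicate 3 lay among the TG libraries. The means were 11033 ± 928 and 16408 ± 3573 CPM (SD, n = 4 each), and the log2 fold change was -0.57 ± 0.18 (SE, edgeR adjusted p = 0.0370). This call was the least stable. It held in 2 of the 8 fits with a library left out, those without TG replicate 4 and without WT replicate 3. In the 6 others the adjusted p was 0.0628 to 0.115, at log2 fold changes of -0.58 to -0.51. Without WT replicate 3 the log2 fold change was -0.72, with an adjusted p of 0.00517.

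Angiogenins form a family, and the coding sequence of Ang4 is 84.9% identical to that of Ang and 87.4% to that of Ang2. Of the stretches of 60 bases in Ang4 transcripts, 85.3% occurred in no other gene. Ang, the widely expressed angiogenin, was at 103 ± 17.7 CPM in TG and 105 ± 8.17 CPM in WT (SD, n = 4 each). The log2 fold change of Ang was -0.03 ± 0.11 (SE, edgeR adjusted p = 0.901). Ang shares 1387 exon bases on the same strand with Rnase4, so its counts are uncertain. Ang2 was at 0.25 CPM or lower in every library. Of 11 relatives of the 10 genes in all, 3 passed the filter on low counts (Ang, Lyz2 and Spink1), and 0 were called by edgeR, DESeq2 or limma. Spink1, at means of 1.82 CPM in TG and 0.654 CPM in WT, had an unadjusted p below 0.05 in edgeR and an adjusted p of 0.111. Its call depends on the fit, since edgeR called it higher without the filter (adjusted p = 0.00308), with a covariate for Y-linked counts (adjusted p = 0.0465) and without TG replicate 1 (adjusted p = 0.0232). Nupr2 had 3 to 10 counts per library, and Ang5, Ang6, Apcs and Crp had at most 5. Clpsl2 and Mmp10 had no counts in any library.

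**Figure D2:**
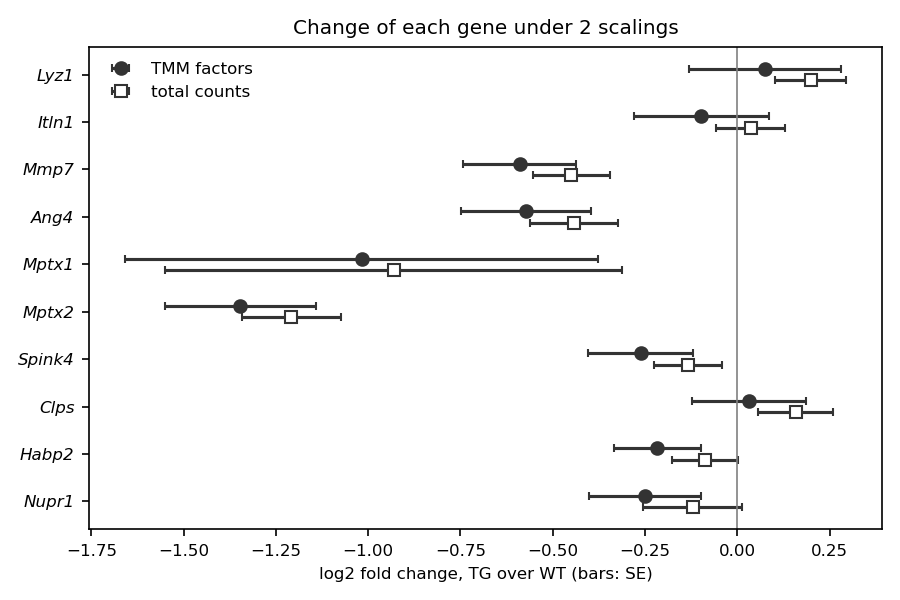
Log2 fold change of each gene, TG over WT (x axis, bars are SE), with TMM factors (filled circles) and with total counts as the only scale (open squares). Mptx2, Mmp7 and Ang4 lie to the left of 0 on both scales, Itln1 moves across 0, and Lyz1 and Clps lie to the right.

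Lyz1 (chromosome 10, 117123698 to 117128775, minus strand) was the most abundant of the 10 genes. It was at 167862, 156072, 161480 and 215507 CPM in TG and at 189409, 144212, 143909 and 188033 CPM in WT. The groups overlapped, TG replicate 4 was highest, and the log2 fold change was 0.07 ± 0.21 (SE, edgeR adjusted p = 0.832). The share of all counts gave another picture, since it depends on the scale. Lyz1 took 17.3%, 16.9%, 17.6% and 20.7% of the counts in TG and 16%, 14.7%, 15.8% and 16.8% in WT, without overlap. The log2 fold change on that scale was 0.20 ± 0.10 (SE, edgeR adjusted p = 0.206), so it was no call either.

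Total counts as the scale shifted the median log2 fold change of all tested genes from 0.01 to 0.12. Mptx2, Mmp7 and Ang4 were again called lower, at -1.21 ± 0.13, -0.45 ± 0.10 and -0.44 ± 0.12 (SE, edgeR adjusted p = 0.000433, 0.0164 and 0.0324), and 0 of the 10 were called higher. On this scale 2.20% of all tested genes were called lower and 6.60% higher. These are 262 genes lower and 787 higher, against 1151 and 985 with TMM. The groups did not overlap for Mptx2, Mmp7 and Ang4, which were lower, and for Lyz1, which was higher, and 3.91% and 11.7% of all tested genes were wholly lower and wholly higher. The median log2 fold change of the 10 genes was -0.26 with TMM and -0.13 with total counts. With TMM, 8 of the 10 values were negative against 48.7% of all tested genes. With total counts, 7 were negative against 33.7%.

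Lyz1 has a neighbour, Lyz2, the lysozyme of macrophages, with a coding sequence that is 95.1% identical over 447 bases. The pair is shown from coding position 61 to 120, with the 9 differing bases in capitals, since mixed counting of these genes would bear on Lyz2 far more than on Lyz1:
Lyz1: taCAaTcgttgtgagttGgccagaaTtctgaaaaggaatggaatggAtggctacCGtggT
Lyz2: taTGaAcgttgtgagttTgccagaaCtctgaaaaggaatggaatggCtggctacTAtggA
Lyz2 was at 8.32 to 29.3 CPM in TG and 11.7 to 18 CPM in WT, with a log2 fold change of 0.43 ± 0.39 (SE, edgeR adjusted p = 0.484). This is 0.496 to 1.59 Lyz2 counts for each 10000 Lyz1 counts. Immune cells were near the limit of detection, with 13 marker genes summing to 0.985 to 2.31 CPM in TG and 0.40 to 1.95 CPM in WT. The macrophage genes Adgre1 and Csf1r and 5 other markers had no counts in any library.

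Itln1 (chromosome 1, 171345690 to 171368943, minus strand) was at 52947, 46897, 43464 and 50648 CPM in TG and at 62712, 48022, 40505 and 56295 CPM in WT. The WT libraries enclosed all TG libraries. The log2 fold change was -0.10 ± 0.18 with TMM (SE, edgeR adjusted p = 0.743) and 0.04 ± 0.09 with total counts (SE, edgeR adjusted p = 0.836), so its sign depends on the scale. Nearly all of its stretches of 60 bases, 99.9%, were found in no other gene.

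Ratios of 2 genes within a library do not depend on the scale. Mptx2 had 3.19, 3.37, 3.68 and 3.52 counts for each 100 Lyz1 counts in TG and 10.6, 10.6, 6.87 and 8.60 in WT. The same ratio was 1.75 to 2.55 in TG and 3.10 to 4.02 in WT for Mmp7, and 5.56 to 6.82 and 7.70 to 12.8 for Ang4. None of the 3 overlapped. Spink4, at 2.39 to 2.96 counts in TG and 3.02 to 3.91 in WT, and Habp2, at 0.352 to 0.457 and 0.468 to 0.583, were wholly lower against Lyz1 as well, although neither was called. These were 5 of the 9 other genes, and 8.50% of all tested genes were wholly lower in TG against Lyz1. Against Itln1, Mptx2 had 10.1, 11.2, 13.7 and 15 counts for each 100 in TG and 32.0, 31.8, 24.4 and 28.7 in WT. WT replicate 3 had the lowest WT ratio of Mptx2 and stayed above all TG libraries. Mptx2, Mmp7, Ang4 and Habp2 were wholly lower against Itln1, which held for 2.52% of all tested genes. For Itln1 itself the groups overlapped, at 23.5 to 31.5 counts for each 100 Lyz1 counts in TG and 28.1 to 33.3 in WT. These ratios describe the unequal change and were not tested.

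The remaining genes are known from secretory cells of other kinds as well. Spink4, a Kazal-type inhibitor of serine proteases that goblet cells also make, was at 4224 to 5155 CPM in TG and 4673 to 6795 CPM in WT. Its log2 fold change was -0.26 ± 0.14 (SE, edgeR adjusted p = 0.212). Habp2, a serine protease of blood plasma that binds hyaluronan, was at 662 to 767 CPM in TG and 673 to 973 CPM in WT. Its log2 fold change was -0.22 ± 0.12 (SE, edgeR adjusted p = 0.212). Nupr1, a small nuclear protein induced by stress, was at 402 to 554 CPM in TG and 403 to 685 CPM in WT. Its log2 fold change was -0.25 ± 0.15 (SE, edgeR adjusted p = 0.265). In all 3 the TG libraries overlapped the WT libraries. Without WT replicate 3, Nupr1 passed the test, at a log2 fold change of -0.39 (adjusted p = 0.0414). Only 82.2% of the stretches of 60 bases in its annotated transcripts occurred in no other gene, the lowest share of the 10.

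Clps encodes colipase, a cofactor of pancreatic lipase. It was at 2059 to 2985 CPM in TG and 1806 to 2732 CPM in WT, with a log2 fold change of 0.03 ± 0.15 (SE, edgeR adjusted p = 0.909). Of 13 genes of pancreatic acinar cells, 9 had no counts in any library, among them Pnlip, the lipase that colipase serves, and Prss1, Prss2, Cpb1 and Amy2a1. A count of 0 allows up to 3 counts, which is 0.185 to 0.229 CPM at these totals and covers counting error only. The list summed to 25.7 to 44.7 CPM in TG and 13.4 to 34.5 CPM in WT. Pnliprp1, a relative of the lipase, gave most of it, at 34.9 ± 7.77 and 22.4 ± 8.77 CPM (SD, n = 4 each). It was the 1 gene of the list that passed the filter and was not called by edgeR (log2 fold change 0.64 ± 0.29 (SE), adjusted p = 0.171) or DESeq2, whereas limma called it higher with an adjusted p of 0.0374.

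Levels can be compared between genes only per length. On the scale of TPM, in which counts are divided by the exon length of the gene and set to a common total, the order in WT was Lyz1, Itln1, Mptx2, Ang4, Spink4, Mmp7, Clps, Habp2, Nupr1 and Mptx1. Lyz1 was at 131338 ± 9772 TPM, Itln1 at 39854 ± 914 TPM and Mptx2 at 19081 ± 2501 TPM (SD, n = 4). Lyz1 ranked at 2 of all genes in every library. Below these came Ang4 at 9317 ± 1723, Spink4 at 8048 ± 660, Mmp7 at 4900 ± 325 and Clps at 3326 ± 223 TPM. Habp2 at 194 ± 15.2 and Nupr1 at 152 ± 31.7 TPM were far lower, and Mptx1 at 22.8 ± 22.3 TPM was the lowest. The ranges of Ang4 and Spink4 overlapped, as did those of Habp2 and Nupr1, and all other neighbours in this order were apart.

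In TG the top and the bottom of the order were the same, and the middle was not. Lyz1 was at 156322 ± 13642 and Itln1 at 42517 ± 2136 TPM (SD, n = 4). Mptx2, at 8636 ± 1127 TPM, had come down to Spink4 at 7615 ± 523 and Ang4 at 7125 ± 427 TPM. The range of Spink4 overlapped with those of both. Clps, at 3854 ± 323 TPM, was no longer apart from Mmp7, at 3740 ± 375 TPM. With the longest transcript as the length the WT order was the same. In TG it put Ang4 at rank 3, Spink4 at rank 4 and Mptx2 at rank 5, so the order among these depends on the length used.

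**Figure D3:**
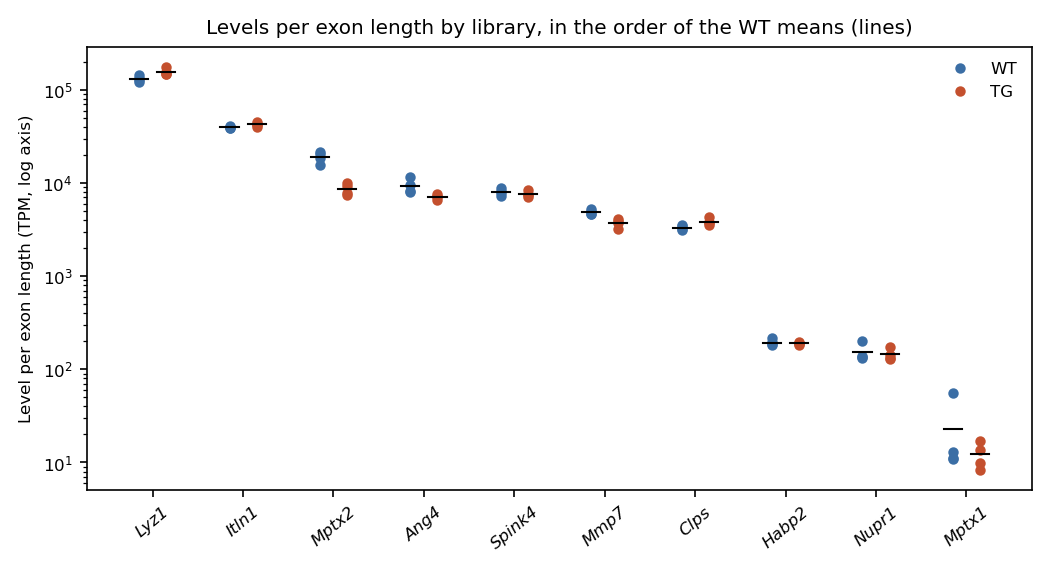
Levels per exon length (TPM, log y axis) of the 10 genes in each WT library (blue) and TG library (red), in the order of the WT means, with lines for group means. The 3 genes Mptx2, Ang4 and Spink4, with WT means of 19081, 9317 and 8048 TPM, lie together in TG at 8636, 7125 and 7615 TPM.

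Because replicates 1 and 2 had no Y-linked counts and replicates 3 and 4 had them, each comparison was repeated within each of these sets, with 2 libraries per group. In the libraries without Y-linked counts, the log2 fold change of Mptx2 was -1.74 (edgeR, adjusted p = 0.00111), and in those with them it was -0.94 (edgeR, adjusted p = 0.154). Mmp7 had -0.72 and -0.44 (edgeR, adjusted p = 0.0564 and 0.376), and Ang4 had -0.77 and -0.36 (edgeR, adjusted p = 0.0551 and 0.593). Mptx2 was thus the only gene of the 10 called lower in the former, where 5.29% of tested genes were. There 5 of the 10 were lower with an unadjusted p below 0.05, against 13.4% of tested genes. In the latter 0 were called by edgeR, where 0.865% of tested genes were. There 1 was lower with an unadjusted p below 0.05, against 8.44% of tested genes. DESeq2 and limma were not run within these sets. With a term for this split over all 8 libraries, Mptx2 and Mmp7 were called and Ang4 had an adjusted p of 0.0511.

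Whether the change itself differed between these sets was tested with an interaction term in edgeR. None of the 10 genes passed, and 0.0251% of all tested genes did. For Mptx2 the log2 fold change was 0.79 ± 0.39 higher with Y-linked counts (SE, edgeR adjusted p = 0.884). Mptx1 was the 1 gene of the 10 with an unadjusted p below 0.05 (edgeR, adjusted p = 0.831), against 5.73% of all tested genes. Its log2 fold change was -2.06 without and 0.40 with Y-linked counts, and the former includes WT replicate 2, at 40.3 CPM. The interaction was not run with DESeq2 or limma.

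**Figure D4:**
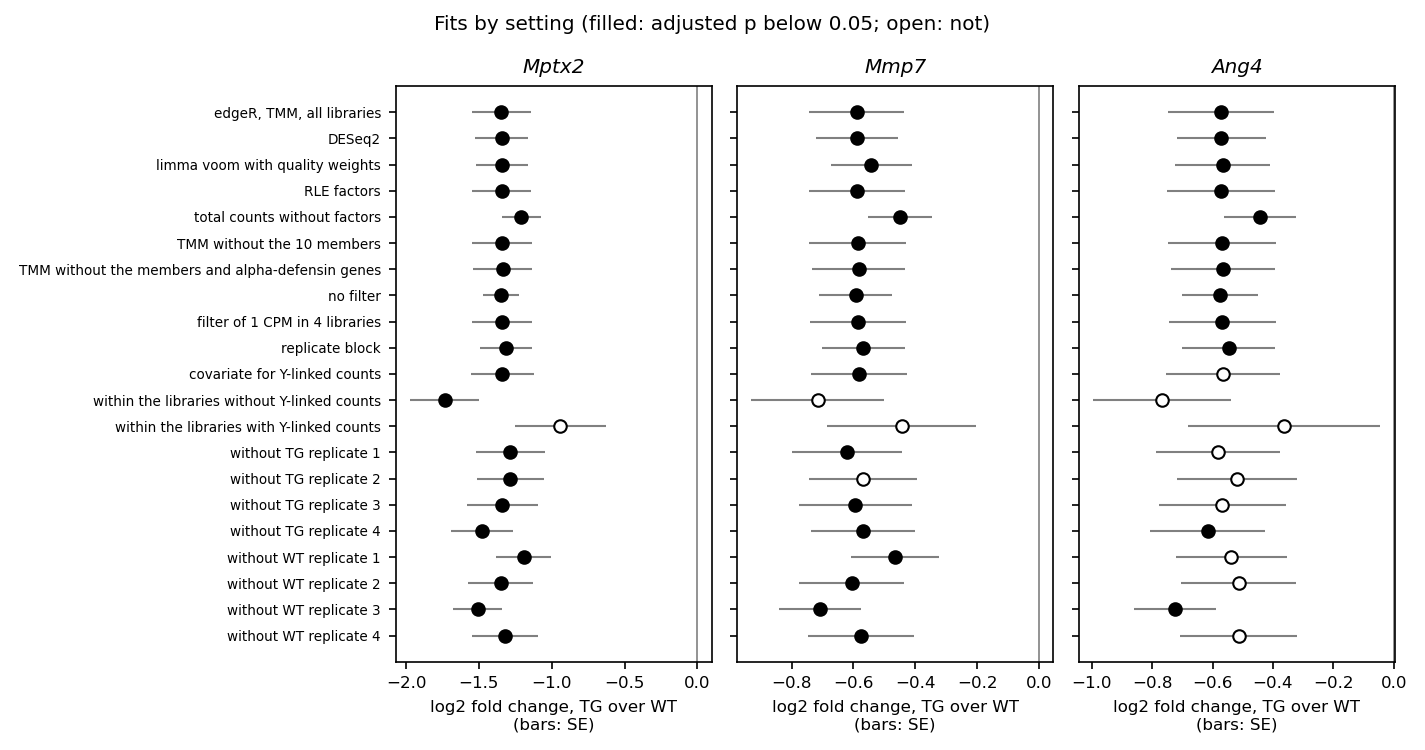
Log2 fold change, TG over WT (x axes, bars are SE, a separate scale for each gene), of Mptx2, Mmp7 and Ang4 under each setting of the fit (rows), filled where the adjusted p was below 0.05. Every value lies below 0, Mptx2 is open only within the libraries with Y-linked counts, and Ang4 is open in 6 of the 8 fits that leave out a library.

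Other genes of Paneth cells were taken as lists beside the 10. Of 17 genes of Paneth cell identity and niche signals, all tested, 3 were higher and 2 were lower, with a median log2 fold change of -0.12. DESeq2 called 3 higher and 5 lower, and limma called 3 higher and 3 lower. The growth factor Egf was at 38.9 to 54.5 CPM in TG and 24.6 to 34.6 CPM in WT (log2 fold change 0.78 ± 0.13 (SE), edgeR adjusted p = 0.00180). Fzd5, the Wnt receptor that Paneth cells need to mature, was at 28.4 to 39.1 and 23.4 to 25.8 CPM (log2 fold change 0.42 ± 0.10 (SE), edgeR adjusted p = 0.0132). Kit was higher (log2 fold change 0.48 ± 0.09 (SE), edgeR adjusted p = 0.00352) and Cd24a lower (log2 fold change -0.40 ± 0.12 (SE), edgeR adjusted p = 0.0300). Both encode surface proteins on which the study's sort was gated. The other gene that was lower was Nod2, the sensor of bacterial muramyl dipeptide, at 0.395 to 0.912 CPM in TG and 1.25 to 1.54 CPM in WT (log2 fold change -1.04 ± 0.33 (SE), edgeR adjusted p = 0.0425). Egf and Kit were called in all 8 fits with a library left out and Fzd5 in all but the one without TG replicate 2. Cd24a was called in 3 of these fits and Nod2 in 1, and neither was called with total counts as the scale (adjusted p = 0.0638 and 0.103). In the set without Y-linked counts Egf and Kit were called, and in the set with them none of these 5 genes was, with adjusted p of 0.138 for Egf, 0.113 for Kit and 0.219 for Fzd5.

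Of 21 genes of granule sorting and exocytosis, 19 were tested, 3 were higher and 1 was lower, with a median log2 fold change of 0.10. Vamp2, a SNARE protein of vesicles, was at 39.6 to 54.9 CPM in TG and 23.8 to 39.0 CPM in WT (log2 fold change 0.70 ± 0.15 (SE), edgeR adjusted p = 0.0102). Atg7, which acts in autophagy, and Rab27b, a GTPase of secretory granules, were higher with log2 fold changes of 0.36 ± 0.11 and 0.31 ± 0.10 (SE, edgeR adjusted p = 0.0400 and 0.0401). Rab27a, the close relative of Rab27b, was lower, with -0.35 ± 0.11 (SE, edgeR adjusted p = 0.0441). Vamp2 was called in all 8 fits with a library left out, Atg7 in 3, and Rab27b and Rab27a in 1 each. The adjusted p of the lost calls was 0.0761 to 0.112 for Atg7, 0.0506 to 0.133 for Rab27b and 0.0517 to 0.137 for Rab27a. Atg7 was not called by limma either (adjusted p = 0.0524), nor Rab27a with total counts as the scale (adjusted p = 0.253). Vamp2 was not called in the set without Y-linked counts (adjusted p = 0.133). Rab27a was at a log2 fold change of -0.64 there and of -0.04 in the set with them (edgeR, adjusted p = 0.00972 and 0.880), and Atg7 and Rab27b were called in neither set. DESeq2 called 3 genes of the list higher and 1 lower, and limma 2 in each direction. The shares of both lists called in either direction can be read against the 8.26% and 9.65% of all genes.

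Markers of other epithelial cells were measured beside these results. Of 14 enterocyte genes, 13 were tested and 6 were higher in TG, among them Apob and Alpi (edgeR, log2 fold changes 1.07 and 2.56, adjusted p = 0.00309 and 0.00463). The median log2 fold change of the list was 1.56, and 11 of the 13 had an unadjusted p below 0.05. DESeq2 called 10 higher and limma 5. The list summed to 344 to 496 CPM in TG and 208 to 306 CPM in WT, with no marker at 0 in all libraries. Of 12 goblet cell genes 2 were higher and 1 was lower, and they summed to 5712 to 8805 CPM in TG and 7525 to 8577 CPM in WT. Of 8 stem cell genes 2 were higher and 1 was lower, at 2609 to 3472 and 2338 to 3099 CPM. Of 4 enteroendocrine genes and 7 tuft cell genes tested, 0 were called by edgeR and 0 had an unadjusted p below 0.05. DESeq2 called 0 of them as well, and limma called 1 enteroendocrine gene lower. The part of these cells in the changes of Mptx2, Mmp7 and Ang4 was not tested.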

How the data were processed

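RNA of FACS-sorted Paneth cells was isolated with a column kit and made into stranded, poly(A)-selected Illumina libraries, per the labels. The authors deposited a table of raw counts per Ensembl gene ID for the 8 libraries. The submitters' processing notes name FastQC 0.12.0, STAR 2.7.0a, DESeq2 and the build mm39, without roles. Not given in the sources used here were the counting tool, the annotation and the treatment of reads with several alignments. GENCODE M39 on GRCm39 matched 54749 of the 55414 IDs.

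Counts were fitted with edgeR 4.0.16 in R 4.3.3 (TMM, default filter, robust quasi-likelihood fit, group as the only term, Benjamini-Hochberg at 0.05), over the whole table and all 8 libraries. The SE was obtained as the log2 fold change over the root of its F statistic. Alternatives were DESeq2 1.42.0, voom in limma 3.58.1 with quality weights, scaling by RLE factors, by total counts, or by TMM leaving out the 10 genes (with or without the alpha-defensin genes), all genes unfiltered or those above 1 CPM in 4 libraries, the replicate number as a block, Y-linked counts as a covariate or as 2 separate sets of libraries, and leaving out each library. The steps were tested on simulated data.

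TPM used exon lengths from GENCODE. Upstream windows came from RefSeq (GRCm38.p6), which matched 8 of the 10 genes and not Spink4 and Clps, and identities came from global alignments. Named were all 10 genes, their paralogs with counts, and up to 3 genes with the smallest p of every other list. Cd24a, Nod2, Rab27a and the genes listed at 0 were named after their values were seen. The genes and the lists were chosen with earlier results of these data known. Precision is limited by the 4 libraries per group.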

Additional observations from a re-analysis of the deposited data

Results flagged for a closer look

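Ang4 in WT replicate 3, at 11077 CPM with TMM factors, stood apart from the other WT libraries at 17657 to 18461 CPM. Its gap to the nearest of them was 0.891 of the range of the group, above Dixon's 95% critical value for 4 libraries. Among 20 groups of 4 libraries examined, for the 10 genes in TG and in WT, this was the 1 such case, and chance alone gives about 1 in 20. Without this library the log2 fold change of Ang4 was -0.72 instead of -0.57.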

How the results depend on the processing

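Of the 10 genes, 3 were called lower in the reported fit and under every setting on all 8 libraries except the covariate for Y-linked counts, which gave 2. This includes the replicate block, where 3 were called and the log2 fold change of Mptx2 was -1.32. The replicate numbers were not taken as pairs in the reported fit. The deviations of same-numbered libraries correlated at 0.08, 0.07, 0.29 and 0.23. No values for libraries of different number were set beside these, so they do not decide whether the libraries are paired. The count was 1 in the set without Y-linked counts and 0 in the set with them, and 1 to 4 with a library left out. It was 1 without TG replicate 2 and 4 without WT replicate 3. No setting called any of the 10 higher. The interaction was run with TMM, with total counts and without a filter, and none of these called any of the 10. The replicate block ended the calls of Nod2 and Rab27a and gave calls of Pnliprp1 and Spink1, both higher (log2 fold changes -1.06, -0.34, 0.68 and 1.46). Nod2 was also lost without a filter (adjusted p = 0.0813) and Rab27a with the covariate (0.0509), and Spink1 was called in both of these fits. Total counts turned the sign of Itln1 to 0.037 and of Ang to 0.090. In the set without Y-linked counts, Lyz1 was at -0.044, Clps at -0.10 and Lyz2 at -0.29. In the set with them, Mptx1 was at 0.40 and Ang at 0.015. Over the fits leaving out a library, log2 fold changes ran from -0.042 to 0.14 for Lyz1, from -0.20 to 0.0042 for Itln1, from -0.084 to 0.10 for Clps and from -0.14 to 0.066 for Ang. The cause of these changes of sign was not tested, and none of these values was a call. Over all genes, 2136 were called in the reported fit, 1049 with total counts, 1138 and 217 in the sets without and with Y-linked counts, and 1055 to 2228 with a library left out.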
